A study of Mus musculus with 21 samples.

Results

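The transcripts of 6 protein and lipid kinase genes, Pik3ca, Pik3cb, Akt1, Akt2, Mtor and Mapk3, were followed in the midbrain of 21 male C57BL/6 mice in 7 groups of 3. The genes were taken by their symbols, and all 6 were listed once in each of the 2 deposited tables, out of 55592 genes listed in either table. Between 1337 and 14954 reads were counted for each of the 6 genes in each mouse, so all of them passed the filter on low counts.

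The study asked whether irisin, the peptide cleaved from the muscle membrane protein FNDC5, protects mice from the neurotoxin MPTP, which is taken up by dopaminergic neurons after its conversion to MPP+ and is used to model Parkinson's disease. In the pre-treatment experiment, control mice received ddH2O for 10 days, MPTP mice received MPTP (30 mg/kg/d, 5 days) with ddH2O over the other 5 days, and the third group received irisin (200 ug/kg/d, 5 days) ahead of the same MPTP course. The delayed treatment experiment had its own ddH2O control and MPTP groups, a group given irisin alone with 5 days of ddH2O, and a group given irisin after MPTP. All injections were intraperitoneal, the labels give an age of 6 weeks for all mice, and per the methods the tissue was nigra taken by hand from the perfused brain. MPTP is a toxin model without the genetic background or the slow course of the human disease, each group holds only 3 mice, and the labels do not say whether mice of a group shared a cage or a day of dissection.

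These kinases stand at successive steps of a pair of pathways that growth factors and integrins switch on. Class I phosphoinositide 3-kinases make the membrane lipid PIP3, PIP3 recruits Akt, and Akt is activated by phosphorylation and in turn relieves the brakes on mTOR, while Ras, Raf and MEK pass a parallel signal to the ERK kinases. Integrins, which have been described as irisin receptors, reach both pathways through focal adhesion kinase. In neurons these pathways are known for survival signalling and for control of protein synthesis. What is switched on in such signalling is the phosphorylated protein, and RNA-seq counts only the transcript, so the values below describe how much kinase message was present and not how active the kinases were.

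Because the pathways are usually read out by phosphorylation, the transcribed sequence around the regulatory sites is shown first, to place what was counted. The sequences below come from the GENCODE vM21 annotation of GRCm38 and are printed 5′ to 3′ on the coding strand as 30 bases of coding exon. In Akt1 and Akt2 the capitals mark the codon of the serine in the C-terminal hydrophobic motif, which mTOR complex 2 phosphorylates (Ser473 in Akt1 and Ser474 in Akt2). In Mapk3 the capitals mark the codons of the Thr-Glu-Tyr motif (residues 203 to 205), whose threonine and tyrosine MEK phosphorylates.
Akt1, chr12:112654710-112654739, minus strand: cacttcccccagttcTCCtactcagccagt
Akt2, chr7:27638100-27638129, plus strand: cacttcccccagttcTCCtactcagccagc
Mapk3, chr7:126763446-126763475, plus strand: actggctttctgACGGAGTATgtggccaca

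The windows of Akt1 and Akt2 are nearly the same, and these paralogs shared an identical run of 32 bases, the longest found between annotated transcripts of the pairs compared. For Pik3ca with Pik3cb the longest run was 15 bases. The read length was not given in the sources used here, so reads within the 32-base run could be split between Akt1 and Akt2 to an unknown degree. The annotated Mtor gene overlaps Angptl7 on the opposite strand over 5278 bases, and Pik3ca overlaps the unclassified Gm37123 on its own strand over 1171 bases. The strand setting of the counting was not given, and reads in those stretches could not be told apart here.

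Among the lipid kinases, Pik3ca (ENSMUSG00000027665, chr3:32397671-32468486, plus strand) encodes the catalytic subunit p110α. Its level, as a read count scaled to the size of the library by trimmed mean of M values (CPM), was 51.2, 50.8 and 39.7 in the control mice of the pre-treatment experiment, 56.1, 81.4 and 60.0 in the MPTP mice, and 48.4, 45.8 and 90.5 in the mice given irisin before MPTP. It was, in the delayed treatment experiment, 33.8, 69.0 and 42.1 in controls, 45.6, 47.1 and 51.0 with irisin alone, 41.2, 68.9 and 50.4 with MPTP, and 78.8, 45.1 and 65.6 with irisin after MPTP. All 3 MPTP mice of the pre-treatment experiment lay above their controls, and single mice stood apart in several groups, with the highest mouse of the delayed controls at 2.04 times the lowest.

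Pik3cb (ENSMUSG00000032462, chr9:99036654-99140087, minus strand) encodes p110β, the catalytic subunit that G protein-coupled receptors can also activate. It was measured at 29.2, 50.3 and 20.1 CPM in the controls of the pre-treatment experiment, at 44.8, 42.6 and 34.8 CPM with MPTP, and at 40.9, 44.2 and 40.7 CPM with irisin before MPTP. In the delayed treatment experiment the values were 27.7, 34.4 and 47.4 CPM in controls, 45.0, 31.4 and 46.4 CPM with irisin alone, 47.6, 48.0 and 44.5 CPM with MPTP, and 33.8, 36.8 and 26.7 CPM with irisin after MPTP. The 3 mice given irisin after MPTP lay below all 3 MPTP mice, whereas the controls of the pre-treatment experiment spread over 2.51-fold.

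Akt1 (ENSMUSG00000001729, chr12:112653821-112674884, minus strand) encodes the Akt isoform best known for cell survival. Its levels were close within each experiment, with group means of 147 ± 2.33 CPM (SD, n = 3) in controls, 147 ± 9.13 CPM with MPTP and 144 ± 5.00 CPM with irisin before MPTP. Akt1 in the delayed treatment experiment was at 211, 196 and 198 CPM in controls, 179.8, 186 and 192 CPM with irisin alone, 197, 191 and 195 CPM with MPTP, and 180.3, 193 and 191 CPM with irisin after MPTP. The mice given irisin alone all lay below the controls.

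Akt2 (ENSMUSG00000004056, chr7:27591552-27640826, plus strand) encodes the isoform known for insulin-stimulated glucose uptake. It was at 45.8, 50.0 and 44.9 CPM in the controls of the pre-treatment experiment, 44.5, 57.0 and 46.5 CPM with MPTP, and 43.4, 44.1 and 39.0 CPM with irisin before MPTP. The mice given irisin before MPTP lay below the MPTP mice. Group means in the delayed treatment experiment ran from 58.0 ± 1.07 CPM (SD, n = 3) in controls to 61.4 ± 5.06 CPM with irisin after MPTP.

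Mtor (ENSMUSG00000028991, chr4:148448611-148557683, plus strand) encodes the kinase of both mTOR complexes. The group means were 101 ± 3.45, 104 ± 7.45 and 106 ± 2.85 CPM (SD, n = 3) for control, MPTP and irisin before MPTP, and in the delayed treatment experiment they were 122 ± 2.59 CPM in controls, 122 ± 1.71 CPM with irisin alone, 127 ± 4.99 CPM with MPTP and 122 ± 5.50 CPM with irisin after MPTP. The groups of each experiment overlapped in every comparison.

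Mapk3 (ENSMUSG00000063065, chr7:126759601-126765819, plus strand) encodes ERK1. The group means were 126 ± 2.44, 119 ± 6.39 and 119 ± 8.79 CPM (SD, n = 3) for control, MPTP and irisin before MPTP. In the delayed treatment experiment they were 184 ± 19.4 CPM in controls, 169 ± 7.48 CPM with irisin alone, 173 ± 17.9 CPM with MPTP and 176 ± 14.8 CPM with irisin after MPTP, and here too the groups overlapped in every comparison. Akt1, Mtor and Mapk3 were higher in every mouse of the delayed treatment experiment than in any mouse of the other, and Akt2 in most. The controls, which received only ddH2O in both experiments, differed too. Their means in the pre-treatment and delayed treatment experiments were 147 and 202 CPM for Akt1, 101 and 122 CPM for Mtor, and 126 and 184 CPM for Mapk3. The tables were made separately and the experiments differ as a whole, and the source of these level differences was not tested.

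**Figure D1:**
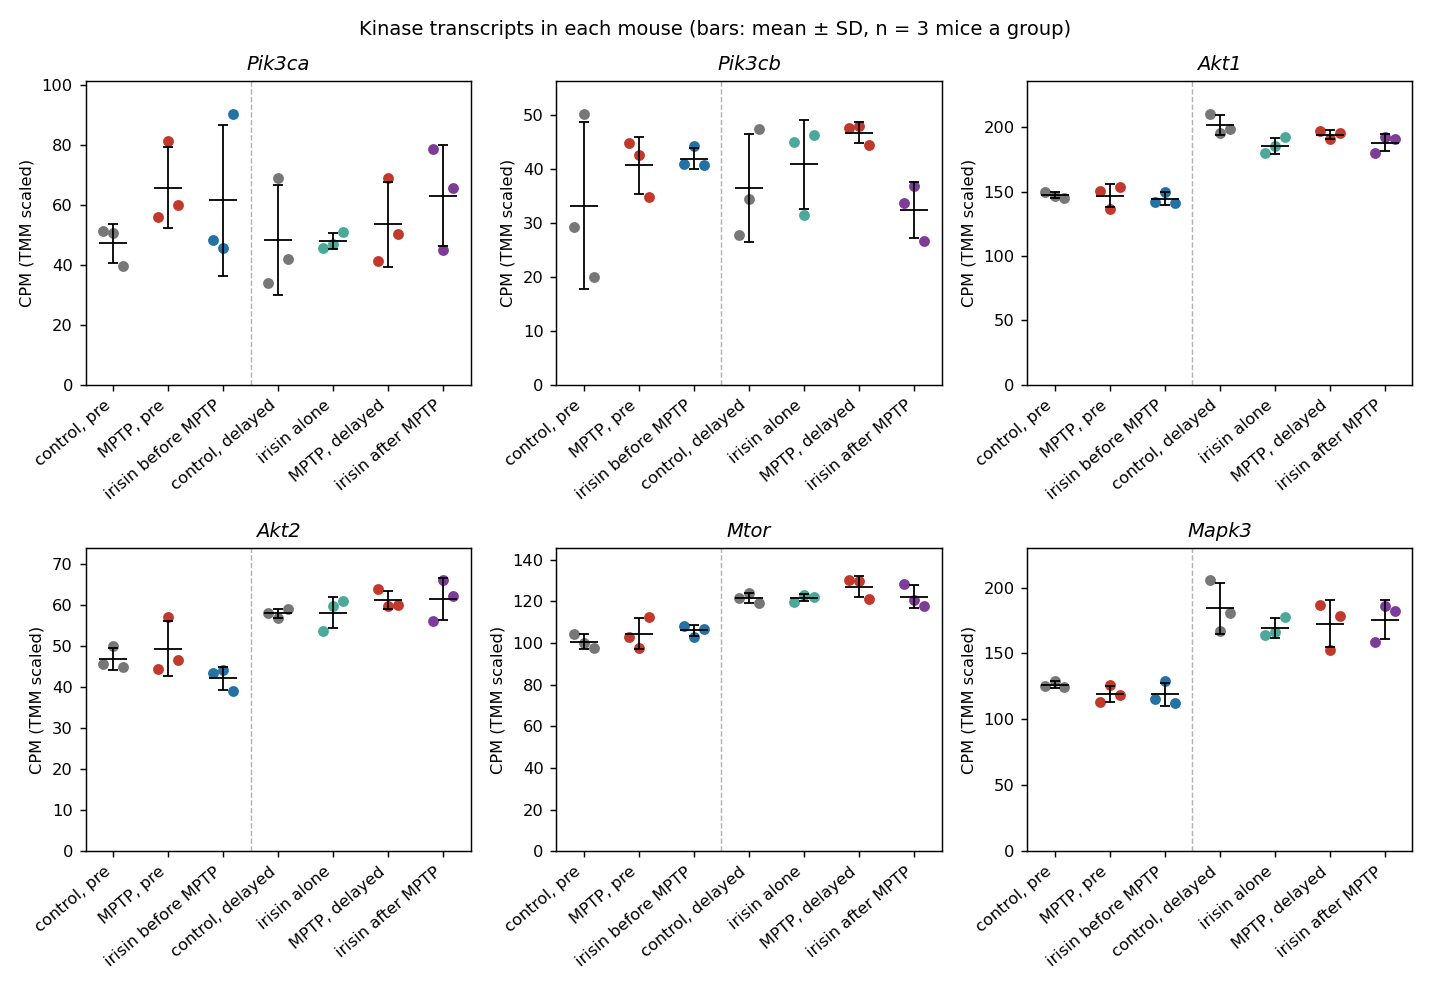
CPM of the 6 kinase transcripts (y axis from 0) in each mouse (points) by group (x axis), with the mean and SD of 3 mice; the dashed line parts the pre-treatment from the delayed treatment experiment. Pik3ca runs from 33.8 to 90.5 CPM and Pik3cb from 20.1 to 50.3 CPM, with wide spread inside groups, while Akt1 and Mtor lie close together within each experiment.

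Levels of different genes were ordered on the deposited FPKM scale, which divides by gene length. Mapk3 was the most abundant of the 6 transcripts, with a median of 63.0 FPKM over 21 mice (44.6 to 80.1), followed by Akt1 at 39.4 FPKM (30.0 to 45.2), Mtor at 10.3 FPKM (8.56 to 11.5) and Akt2 at 7.04 FPKM (4.88 to 8.18). Pik3cb had a median of 5.05 FPKM (2.51 to 6.04) and Pik3ca a median of 4.94 FPKM (3.26 to 8.90). The order from Mapk3 to Akt1, to Mtor and to Akt2 held in all 21 mice. Akt2 was above Pik3cb in 20 of 21 mice and without overlap in 5 of 7 groups. Pik3cb and Pik3ca did not differ beyond their spread, since Pik3cb was the higher of the pair in 11 mice and the groups overlapped in all 7 cases.

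None of the 6 genes passed the test in any of the 5 comparisons between groups. The test was the edgeR quasi-likelihood test over all genes with Benjamini-Hochberg adjustment and a threshold of 0.05. DESeq2 and limma on log2(FPKM + 1) also called 0 of 6 each time. The lowest adjusted p of the 30 edgeR tests was 0.531. Of these 30 tests, 2 (6.67%) had an unadjusted p under 0.05, against 3.9% to 8.97% of all tested genes, and in 5 (16.7%) the groups did not overlap, against 10.7% to 16.2% of all genes, so neither share stood far from that of all genes. The data bound the size of any change unequally. Over the 5 comparisons, the 95% confidence intervals reached from -14.4% to 9.71% for Akt1, from -11.0% to 15.3% for Mtor, from -20.7% to 17.9% for Mapk3 and from -27.6% to 24.3% for Akt2. For Pik3cb they reached from -48.8% to 90.4% and for Pik3ca from -38.4% to 112%. The interval of Pik3ca held a doubling only for MPTP against control in the pre-treatment experiment. In the other comparisons its upper end lay between 42.0% and 79.2%.

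**Figure D2:**
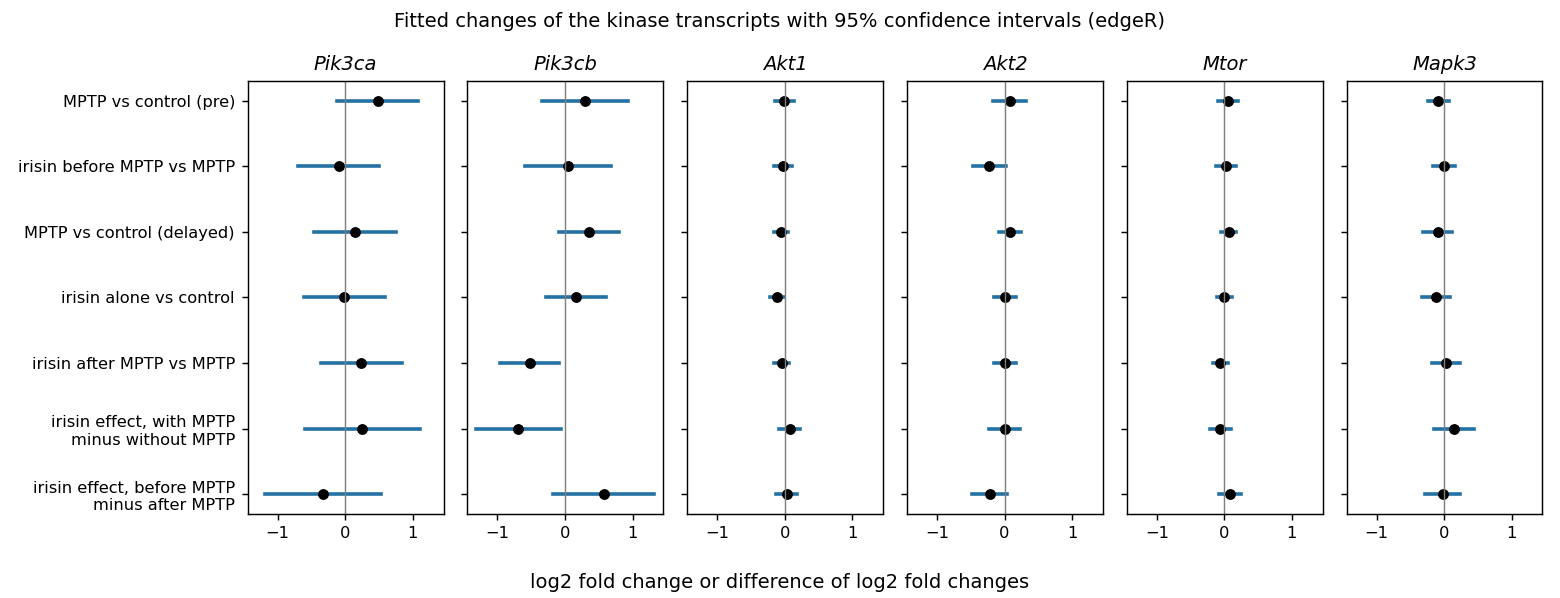
Fitted log2 fold change, or difference of log2 fold changes for the lowest 2 rows (x axis), for 7 comparisons (y axis) and 6 genes (panels); points are estimates and bars 95% confidence intervals. The bars of Akt1 and Mtor are short and those of Pik3ca and Pik3cb long, and only Akt1 with irisin alone and Pik3cb with irisin after MPTP and in its difference have bars that leave out 0.

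MPTP against control was compared once in each experiment. In the pre-treatment experiment 0 of the 6 kinases passed, where 0.0221% of all tested genes did, 0 had an unadjusted p under 0.05 against 6.03% of all genes, and 1 had groups without overlap against 11.6%. That gene was Pik3ca, with a log2 fold change of 0.48 (SE 0.27, adjusted p = 0.852). Pik3cb stood at 0.29 (SE 0.28), Akt2 at 0.07, Mtor at 0.05, Akt1 at -0.01 and Mapk3 at -0.08. Leaving out 1 mouse moved Pik3ca between 0.30 and 0.58. Single mice weighed more on Pik3cb, which ran from 0.03 without the third control mouse to 0.72 without the second (edgeR unadjusted p = 0.00339, adjusted p = 0.477). Same-numbered control and MPTP mice correlated weakly here (r = 0.192, 0.125 and 0.119), and whether they are paired was not tested. With the replicate number as a block 2 of all genes passed in place of 5, and again 0 of the 6 kinases. All 5 choroid plexus markers had a higher estimate with MPTP in this experiment, each with an edgeR unadjusted p under 0.05. Their sums were 11.5 to 1634 CPM (median 12.2) against 10.6 to 14.4 CPM in controls and overlapped. The part of these markers in the kinase values was not tested. In the delayed treatment experiment 0 of 6 passed, where 0.132% of all genes did, none had an unadjusted p under 0.05 against 8.33%, and only Akt2 had groups without overlap against 16.2% of all genes. The log2 fold change was 0.35 for Pik3cb there (SE 0.20, 95% interval -0.09 to 0.80, and 0.19 to 0.59 on leaving out single mice, the highest without the third control mouse), 0.15 for Pik3ca, 0.08 for Akt2 (SE 0.07, adjusted p = 0.841), 0.06 for Mtor, -0.05 for Akt1 and -0.10 for Mapk3. The summed dopaminergic markers were lower with MPTP here, without overlap, and their part in the Akt2 value was not tested.

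Irisin before MPTP was compared with MPTP. Of the 6 kinases 0 passed (0.0707% of all tested genes did), 0 had an unadjusted p under 0.05 (6.22% of all genes), and Akt2 alone had groups without overlap (14.2% of all genes). Akt2 was lower with irisin by 0.23 on the log2 scale (a value of -0.23, SE 0.11, 95% interval -0.47 to 0.02, unadjusted p = 0.0632, adjusted p = 0.829). It was -0.11 without the second MPTP mouse, the highest of its group, and -0.30 without the first. The summed levels of 6 astrocyte markers were also lower with irisin, at 1210.2 to 1347 CPM against 1352 to 1502 CPM (4 markers lower, 2 higher). The sums of striatal neurons (4 markers lower, 2 higher) and red blood cells (all 5 lower) were lower as well. The endothelial sum was higher (4 markers higher, 2 lower). All 8 dopaminergic markers had a lower estimate with irisin, though their sums overlapped between the groups. All 5 choroid plexus markers had a lower estimate too, with overlapping sums of 10.3 to 27.0 CPM against 11.5 to 1634 CPM. The part of all these markers in the Akt2 value was not tested. Pik3ca stood at -0.10, Pik3cb at 0.04, Akt1 at -0.02, Mtor at 0.02 and Mapk3 at -0.0010.

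Irisin alone was compared with the control of the delayed treatment experiment. None of the 6 passed (0.109% of all tested genes did). Akt1 was the only member with an unadjusted p under 0.05 (8.97% of all genes) and the only member whose groups did not overlap (15.1% of all genes). Its log2 fold change was -0.12 (SE 0.05, unadjusted p = 0.0330, adjusted p = 0.531), from 202 ± 7.91 CPM in controls to 186 ± 6.18 CPM (SD, n = 3). Leaving out single mice moved this value between -0.14 and -0.09 (edgeR unadjusted p = 0.0228 to 0.117). Mapk3 stood at -0.12 (SE 0.10), Pik3cb at 0.16, Pik3ca at -0.01, and Akt2 and Mtor at 0.00. The summed dopaminergic markers were also lower with irisin alone, at 633 to 641 CPM against 676 to 713 CPM in controls (7 markers lower, 1 higher). So were the sums of astrocytes (1665 to 1762 against 1768 to 2058 CPM) and striatal neurons (98.7 to 109 against 116 to 157 CPM). In each of these 2 lists 4 markers were lower and 2 higher. All 5 choroid plexus markers also had a lower estimate, 2 of them with an edgeR unadjusted p under 0.05. Their sums were 61.4 to 293 CPM against 235 to 1501 CPM in controls and overlapped. The part of all these markers in the Akt1 value was not tested.

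Irisin after MPTP was compared with MPTP alone. None of the 6 passed (0.00456% of all tested genes did), and Pik3cb was the only member with an unadjusted p under 0.05 (3.9% of all genes) and the only member without overlap (10.7% of all genes). Pik3cb was at 32.5 ± 5.19 CPM against 46.7 ± 1.94 CPM (SD, n = 3), a log2 fold change of -0.53 (SE 0.20, 95% interval -0.97 to -0.08, unadjusted p = 0.0240, adjusted p = 0.9995). Leaving out single mice moved this value between -0.62 and -0.40. Pik3ca stood at 0.24 (SE 0.27), Mtor at -0.06, Akt1 at -0.05, Mapk3 at 0.03 and Akt2 at 0.00.

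The design also allowed 2 tests of a difference between effects. The irisin effect in MPTP mice minus that in mice without MPTP passed for 0 of 6 (0.0411% of all tested genes passed), and Pik3cb was the only member with an unadjusted p under 0.05 (5.57% of all genes), with a difference of -0.69 (SE 0.28, unadjusted p = 0.0332, adjusted p = 0.893). The irisin effect before MPTP minus the irisin effect after MPTP passed for 0 of 6 (0.077% of all genes) and none had an unadjusted p under 0.05 (5.69% of all genes). The largest difference there was 0.57 for Pik3cb (SE 0.36, adjusted p = 0.919), followed by -0.33 for Pik3ca and -0.22 for Akt2 (SE 0.12).

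What set the members apart was how much they varied between mice treated alike. The SD of log2 CPM within groups, pooled over the 7 groups with 14 residual degrees of freedom, was 0.054 for Akt1 and 0.057 for Mtor, 0.107 for Akt2, 0.109 for Mapk3, 0.336 for Pik3cb and 0.380 for Pik3ca. Among the 10689 genes with a mean of at least 10 CPM the median was 0.132. Of those genes, 97.7% varied more than Akt1 and 96.5% more than Mtor, but only 12.1% varied more than Pik3cb and 10.2% more than Pik3ca. Counting error was small at these depths, since the lowest count was 1337 reads.

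**Figure D3:**
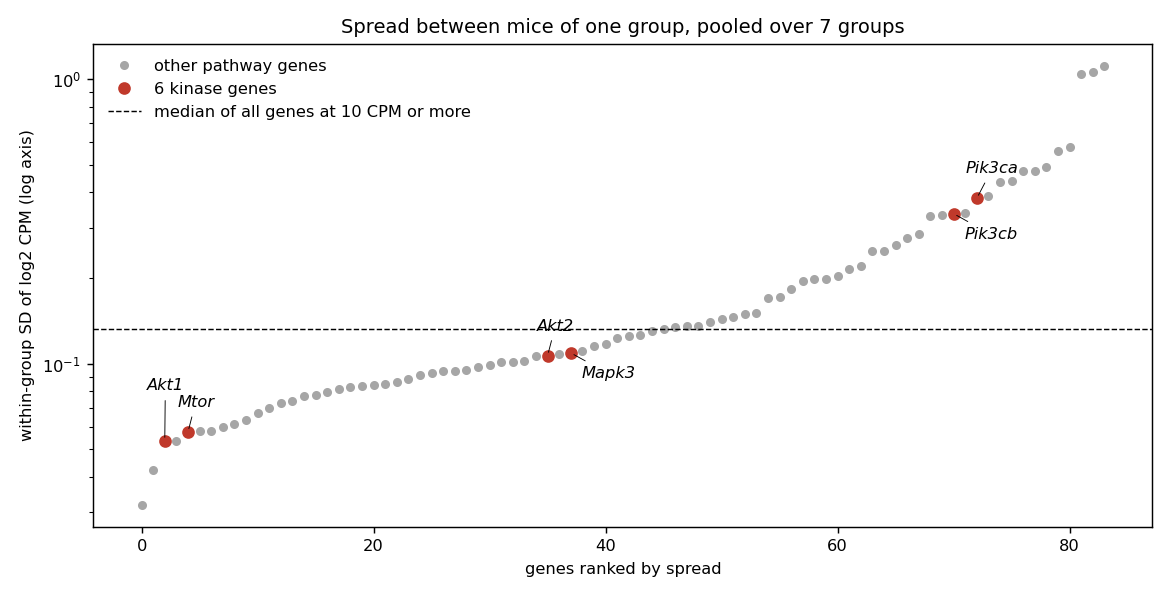
Within-group SD of log2 CPM (y axis, log scale) for the 84 pathway genes with at least 10 CPM, ranked from lowest to highest (x axis); red points are the 6 kinases and the dashed line is the median of 10689 genes, 0.132. Akt1 and Mtor lie near the low end, Akt2 and Mapk3 below the line, and Pik3ca and Pik3cb near the high end.

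Whether the members deviated together was examined across the 21 mice after subtracting each group's mean, over 15 pairs. Akt2 and Mapk3 deviated together (Pearson r = 0.62, permutation p = 0.0011, adjusted p = 0.0165, and Spearman rho = 0.66, permutation p = 0.0021, adjusted p = 0.0312, with mice permuted within groups). The r was 0.79 within the pre-treatment and 0.62 within the delayed treatment experiment, and 0.61 without the 2 mice farthest from the median. Akt1 and Pik3ca deviated in opposite directions with r = -0.61 (permutation p = 0.0172, adjusted p = 0.129, Spearman rho = -0.59, permutation p = 0.0198, adjusted p = 0.099), and this did not pass after adjustment. The r of that pair was -0.57 and -0.66 within the pre-treatment and delayed treatment experiments and -0.61 without the 2 farthest mice. The largest r in size was that of Mapk3 with Pik3ca (r = -0.63, permutation p = 0.0358, adjusted p = 0.157, Spearman rho = -0.57, permutation p = 0.0468, adjusted p = 0.176), which was -0.17 within the pre-treatment and -0.85 within the delayed treatment experiment, and -0.52 without the 2 farthest mice. Akt1 and Mapk3 had r = 0.50 (permutation p = 0.0420, adjusted p = 0.157, Spearman rho = 0.59, permutation p = 0.0188, adjusted p = 0.099), with -0.05 and 0.89 within the experiments and 0.80 without the 2 farthest mice. Neither passed after adjustment, and the difference between the experiments was not tested. Pik3ca and Pik3cb, which varied most, had r = 0.12 (permutation p = 0.615, adjusted p = 0.82) and rho = 0.0065 (permutation p = 0.983).

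The deviations of all 6 members were set beside the GC tilt of each library, the slope of all genes' deviations on the GC content of their transcripts. The annotated Akt1 and Mapk3 transcripts have 59.7% and 57.6% GC, against 41.5% for Pik3ca and 45.8% for Pik3cb. In the 12 mice of the delayed treatment experiment Akt1 followed the tilt with r = 0.94 (permutation p = 0.0106, adjusted p = 0.088 over 12 relations, Spearman rho = 0.92, permutation p = 0.0106, adjusted p = 0.0635), and r was 0.91 without the 2 mice farthest from the median tilt. Mapk3 had r = 0.71 there (permutation p = 0.0147, adjusted p = 0.088, Spearman rho = 0.75, permutation p = 0.00981, adjusted p = 0.0635), and r was 0.65 without the 2 farthest mice. In the 9 mice of the pre-treatment experiment r was 0.05 for Akt1 (permutation p = 0.863, rho = -0.02, permutation p = 0.991) and 0.13 for Mapk3 (permutation p = 0.611, rho = 0.23, permutation p = 0.479). Over all 21 mice r was 0.50 for Akt1 (permutation p = 0.0217, adjusted p = 0.0652 over 6 relations, rho = 0.56, permutation p = 0.0170, adjusted p = 0.0511) and 0.52 for Mapk3 (permutation p = 0.0156, adjusted p = 0.0652, rho = 0.61, permutation p = 0.0048, adjusted p = 0.0290). Without the 2 farthest mice these r were 0.48 and 0.56, and the difference between the experiments was not tested. The largest r in size over all 21 mice was -0.60 for Pik3cb (permutation p = 0.118, adjusted p = 0.235, rho = -0.39, permutation p = 0.226, adjusted p = 0.338), which was -0.34 without the 2 farthest mice. For Pik3ca r was -0.35 (permutation p = 0.167, adjusted p = 0.251, rho = -0.35), for Akt2 0.21 (permutation p = 0.334, adjusted p = 0.368, rho = 0.27) and for Mtor, whose transcript has 54.2% GC, -0.20 (permutation p = 0.368, adjusted p = 0.368, rho = -0.20). Akt2 had r = 0.62 in the delayed treatment experiment (permutation p = 0.0649, adjusted p = 0.26, rho = 0.64) and -0.12 in the other, and the part of the tilt in the relation of Akt2 with Mapk3 was not tested. Against the mean of the experiment, the tilt was -0.110 to 0.006 log2 units per 10 GC percentage points with irisin alone and -0.001 to 0.136 in its controls, and its part in the lower Akt1 of that comparison was not tested.

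**Figure D4:**
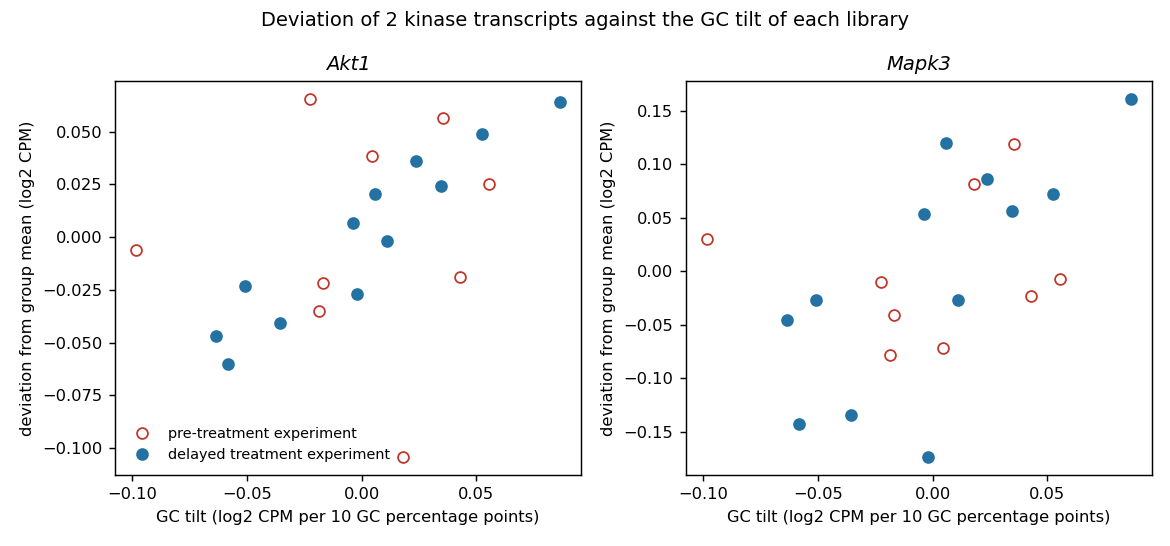
Deviation of Akt1 and Mapk3 from their group mean (y axis, log2 CPM) against the GC tilt of the library (x axis, log2 CPM per 10 GC percentage points), each point 1 mouse. The filled points of the delayed treatment experiment rise together, with r = 0.94 for Akt1 and 0.71 for Mapk3, and the open points of the pre-treatment experiment show r = 0.05 and 0.13.

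The genes whose pattern over the 21 mice was most like each member, after subtracting the mean of each experiment, were named from the 10689 genes, and r is a description here because libraries share depth and base composition. For Akt1 they were Gfra4 (r = 0.85), a GDNF-family receptor, Rnf187 (0.81) and Tmem250-ps (0.80). For Akt2 they were Tln1 (0.83), which encodes the integrin activator talin, Mob3b (0.83) and Myo1d (0.83). For Mapk3 they were Tmem151a (0.84), Fam221b (0.81) and Mien1 (0.79). Pik3ca was most like Cdh7 (0.76), Itpr1 (0.75), which encodes an IP3 receptor, and Lin7a (0.74). Pik3cb was most like Echdc1 (0.78), Arfgef2 (0.74) and Exoc4 (0.73), and Mtor was most like Sun1 (0.81), Gpr17 (0.75) and Sipa1l1 (0.75).

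Beyond the 6 kinases, 88 further genes of the same pathways were counted, in 8 roles, and all 88 were tested in every comparison. None passed the edgeR test in any of them, and DESeq2 called only Pik3ip1, in the MPTP comparison of the pre-treatment experiment. There DESeq2 called 91 of 33731 genes and edgeR 5 of 22641. With MPTP in the pre-treatment experiment 12 of 88 had an unadjusted p under 0.05, 9 higher and 3 lower, with a median log2 fold change of 0.04 against 0.00 for all tested genes. With MPTP in the delayed treatment experiment it was 14 of 88, 11 higher and 3 lower, with a median of 0.02. For irisin before MPTP it was 10 of 88 (2 higher and 8 lower, median 0.00), for irisin alone 12 of 88 (8 higher and 4 lower, median 0.02) and for irisin after MPTP 5 of 88 (2 higher and 3 lower, median -0.02), and the median of all tested genes was 0.00 each time. In the order given here, the shares of the 88 were 13.6%, 15.9%, 11.4%, 13.6% and 5.68%. Those of all tested genes were 6.03%, 8.33%, 6.22%, 8.97% and 3.9%. The list was chosen with earlier results of these data known, and the difference of these shares was not tested.

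Among the relatives of the members, Pik3cd, which encodes p110δ, stood at 0.55 (SE 0.34, adjusted p = 0.87) and 0.02 in the pre-treatment and delayed MPTP comparisons. Without the first control mouse of the pre-treatment experiment the former was 1.18 (adjusted p = 0.0148). Pik3cg, which encodes p110γ and is known from leukocytes, was at 2.7 CPM with irisin before MPTP and 1.6 CPM with MPTP, a log2 fold change of 0.73 (SE 0.21, adjusted p = 0.551). Pik3c2b, a class II PI3K, stood at -0.36 (SE 0.10, adjusted p = 0.543) in the same comparison, at 0.35 (SE 0.12, adjusted p = 0.462) with MPTP in the delayed treatment experiment and at -0.26 (SE 0.12) with irisin after MPTP.

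Upstream, Ptk2, which encodes focal adhesion kinase, lay between -0.14 (SE 0.08, irisin before MPTP) and 0.10 (SE 0.09, MPTP in the delayed treatment experiment) in the 5 comparisons, and its relative Ptk2b between -0.39 and 0.45 with SEs of 0.28 to 0.37. The adaptor gene Gab1 stood at -0.36 (SE 0.12, adjusted p = 0.631) and the regulatory subunit gene Pik3r3 at -0.19 (SE 0.06) with irisin before MPTP. Pik3r3 and the insulin receptor substrate gene Irs2 stood at 0.17 and 0.20 with MPTP in that experiment. Pik3r6, which encodes a regulatory subunit of p110γ, stood at 0.98 (SE 0.26, adjusted p = 0.347) with MPTP in the delayed treatment experiment, at a level of 2.7 against 1.3 CPM.

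Of the brakes, Pik3ip1, whose product inhibits p110, was at 43.8, 17.2 and 42.8 CPM in the controls of the pre-treatment experiment and at 14.2, 15.2 and 15.5 CPM with MPTP. The log2 fold change was -1.21 (SE 0.30, adjusted p = 0.672), and in the remaining groups the gene lay between 15.5 and 27.2 CPM, so that 2 control mice stood apart. DESeq2 called it (log2 fold change -1.21, adjusted p = 0.0176), and so did edgeR without the second control mouse (log2 fold change -1.53, adjusted p = 0.00165).

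Of the downstream genes, Sgk1, a kinase gene that glucocorticoids induce, was at 308 ± 4.69 CPM with MPTP, 215 ± 39.4 CPM in controls and 230.2 ± 41.5 CPM with irisin before MPTP, with log2 fold changes of 0.52 (SE 0.16, adjusted p = 0.815) and -0.42 (SE 0.16, adjusted p = 0.727). Foxo3, a transcription factor gene that Akt restrains, and the ERK substrate gene Elk1 stood at 0.20 and 0.31 with MPTP in that experiment. Gsk3a, an Akt substrate gene, stood at -0.17 (SE 0.06) with MPTP in the delayed treatment experiment and at -0.19 (SE 0.06) with irisin alone, against the same controls. In the delayed treatment experiment the translation repressor gene Eif4ebp2 and the ribosomal S6 kinase gene Rps6ka2 stood at 0.18 and 0.20 with MPTP, and Eif4ebp2 and Foxo1 at -0.16 and 0.26 with irisin after MPTP. With irisin alone, the S6 kinase gene Rps6kb2 stood at -0.43 (SE 0.11, adjusted p = 0.373), the mTOR inhibitor gene Deptor at 0.27 and the Ras brake gene Nf1 at 0.13. The mTORC2 subunit gene Prr5 stood at 0.30 (SE 0.09) with irisin before MPTP.

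For the difference between the irisin effects with and without MPTP, genes with a low unadjusted p included Gsk3a (0.22), Foxo1 (0.38), Ulk1 (0.21), Fyn (0.22) and Pik3c2b (-0.43), each with an adjusted p of 0.893. In all, 8 of 88 (9.09%) had an unadjusted p under 0.05, against 5.57% of all genes. For the irisin effect before minus after MPTP such genes included Gab1 (-0.42, adjusted p = 0.658), Nf1 (-0.21), Irs2 (-0.19) and Nras (-2.48). There 7 of 88 (7.95%) had an unadjusted p under 0.05, against 5.69% of all genes.

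Nras had the largest fold change of the pathway list between any 2 groups compared, at 48.2, 42.7 and 39.1 CPM with irisin after MPTP and 10.7, 8.0 and 8.4 CPM with MPTP (log2 fold change 2.26, SE 0.78, unadjusted p = 0.0147, adjusted p = 0.9995). Across all 21 mice, however, Nras had no intermediate level. It lay between 7.33 and 10.7 CPM in 9 mice and between 39.1 and 54.2 CPM in 12 mice, and 4 of the 7 groups held mice of both kinds. With the spread taken from the compared groups alone the adjusted p was 0.00962. Creb1 and Gsk3b, singled out after their values were seen, also varied widely inside groups (SD of log2 CPM 1.06 and 1.04, and 1.11 for Nras). The fold change of Nras thus follows how many mice of each kind a group held, and how reads were assigned to these 3 genes could not be checked from the tables.

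A further list held 8 immediate early genes, which neurons transcribe within minutes of stimulation. It was chosen with earlier results of these data known, so its medians and shares beside those of all genes are no independent support. ERK activity was not measured, so the levels of these genes are not read as a measure of it. With irisin before MPTP all 8 had a lower estimate than with MPTP, with a median log2 fold change of -1.16 against 0.00 for all genes, and 6 of 8 had an unadjusted p under 0.05 (6.22% of all genes). Only Fos passed the edgeR test, while DESeq2 called 4 of 8 (Fos, Fosb, Nr4a1 and Ier2). Over all genes edgeR called 16 of 22641 here, and DESeq2, run without the filter, called 169 of 33731. Fos, a subunit of the AP-1 transcription factor, was at 8.2, 6.2 and 9.9 CPM with irisin before MPTP and at 29.3, 31.5 and 28.4 CPM with MPTP, with controls at 34.4, 21.3 and 33.5 CPM. It fell by 1.88 on the log2 scale (SE 0.22, adjusted p = 0.0210). The adjusted p was 0.0514 to 0.122 when a single MPTP or irisin mouse was left out. The estimates of the others ran from -0.18 for Arc (SE 0.14) to -2.65 for Egr2 (SE 1.26), which stayed under 1 CPM on average in both groups. The summed markers of red blood cells were also lower with irisin before MPTP, at 231 to 455 CPM against 549 to 810.4 CPM, and the part of these and the other marker lists in the Fos value was not tested.

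With irisin after MPTP none of the 8 passed in edgeR or DESeq2, nor any of the 7 that limma tested, 3 had an unadjusted p under 0.05 with a higher and 1 with a lower estimate (3.9% of all genes), and the median was 0.51. The estimates ran from 0.85 for Ier2 (SE 0.21) to -0.48 for Arc (SE 0.12). For irisin before minus irisin after MPTP, Fos differed by -2.36 (SE 0.26, adjusted p = 0.000396) and Ier2, a short-lived growth response gene, by -2.07 (SE 0.36, adjusted p = 0.0319), and the median of the 8 was -1.69 against 0.01 for all genes. DESeq2 called 5 of 8 for this difference, and limma only Fos among 7. Over all genes edgeR called 18 of 23364, DESeq2 72 of 33575 and limma 13 of 21623. The Ier2 call was lost under the replicate block (adjusted p = 0.16), with limma (0.062) and without any 1 of 9 of the 12 mice (0.0522 to 0.129), while Fos stayed called. With MPTP, 1 of the 8 in the pre-treatment (6.03% of all genes) and 5 in the delayed treatment experiment (8.33% of all genes) had an unadjusted p under 0.05, from -1.04 for Ier2 (SE 0.21) to 0.38 for Arc (SE 0.12) among those 5, and with irisin alone none did. DESeq2 called 2 of the 8 with MPTP in the delayed treatment experiment (Junb and Ier2), and edgeR called 0. Over all genes DESeq2 called 178 of 33428 there and edgeR 29 of 21922.

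**Figure D5:**
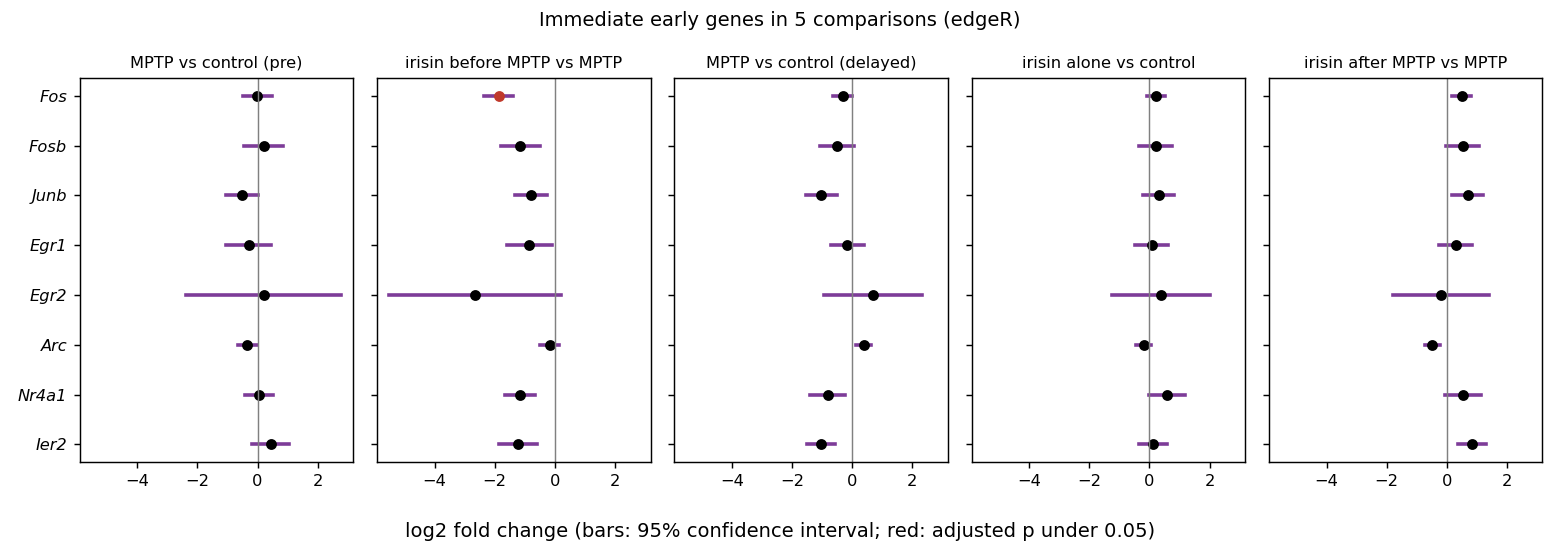
Log2 fold change (x axis) of 8 immediate early genes (y axis) in 5 comparisons (panels), with 95% confidence intervals as bars and an adjusted p under 0.05 in red. All 8 estimates lie below 0 with irisin before MPTP, with Fos at -1.88 in red, and 6 of 8 lie above 0 with irisin after MPTP.

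The libraries held 66653781 to 75637604 counted reads in the pre-treatment and 48843585 to 77203445 in the delayed treatment experiment. The 8 dopaminergic markers were detected, with Pitx3 at 0 reads in 3 of 21 mice, and their sum was 676 to 713 CPM in the delayed controls and 463 to 587 CPM with MPTP, against 526 to 823 CPM and 541 to 861 CPM in the pre-treatment experiment. Choroid plexus markers ranged from 10.3 to 1651 CPM between mice, also inside groups, and their part in the values above was not tested. In such bulk tissue fewer cells of a type and less RNA per cell cannot be told apart. No pair of mice in a group had counts that agreed within sampling noise. The edgeR p-values set a difference against a spread between mice that was estimated over all groups fitted together.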

How the data were processed

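RNA was sequenced from the midbrain of 21 mice on an Illumina instrument, and 2 tables were deposited, with 9 and 12 mice. The authors' tables hold raw read counts per gene, from featureCounts per the methods, and FPKM values, which the authors made by dividing by gene length and depth. The submitters' processing notes name HISAT, StringTie, edgeR and the build mm9 without roles, but the deposited coordinates are those of GRCm38, which are used here. Of the columns with per-mouse values, 0 were left out.

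From the counts, edgeR 4.0.16 in R 4.3.3 (filterByExpr with a count of at least 10 and a total of 15, trimmed mean of M values scaling, quasi-likelihood test, two-sided, Benjamini-Hochberg over 22641, 21922 or, for the contrast over both experiments, 23364 genes) fitted all groups of an experiment together. Fold changes are log2 values with 95% confidence intervals. DESeq2 1.42.0 and limma 3.58.1 on log2(FPKM + 1) for genes with a mean of at least 0.1 FPKM, median ratio scaling, no filter, only the compared groups, a replicate block and leaving out each mouse were tried. The scripts were tested on simulated counts. Relations across mice used 100000 permutations within groups of log2(CPM + 0.1), and intervals and p-values rest on 3 mice a group at 48843585 to 77203445 reads.

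The members and lists were chosen with earlier results of these data known. Named besides the 6 members were Pik3cd, Pik3cg, Ptk2 and Ptk2b, any pathway gene with adjusted p under 0.05, up to 6 pathway genes per comparison with the lowest unadjusted p under 0.05 and no overlap between groups, the largest and smallest changes among 8 immediate early genes, and for each member the 3 genes most like it; some genes that this rule takes are counted in the totals but not reported here by name. Markers of 8 cell types were summed as a check. Gene sequences came from GENCODE vM21, and replicate numbers were checked for pairing by the correlation of same-numbered mice. Of 27 pairs 4 were above 0.1 (range -0.16 to 0.19). Of these, 3 were all the pairs of control with MPTP mice of the pre-treatment experiment (0.192, 0.125 and 0.119). This was the only 1 of 9 pairs of groups where every r passed 0.1, and no chance level was computed for it. The labels name no shared batch, so the mice were not treated as paired, and the replicate block was tried only as an alternative.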

Additional observations from a re-analysis of the deposited data

Results flagged for a closer look

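Of the kinases, their pathway genes and the immediate early genes, 2 immediate early genes had an irisin effect that differed between the experiments by a test of the difference itself. For Fos the irisin effect before MPTP minus that after MPTP was -2.36 on the log2 scale (SE 0.26, edgeR adjusted p = 0.000396), made up of -1.88 (SE 0.22) before and 0.49 (SE 0.14) after MPTP. All 3 mice given irisin before MPTP lay below the MPTP mice of their experiment, and all 3 given irisin after MPTP lay above theirs. Among all tested genes the groups did not overlap for 14.2% in the former comparison and 10.7% in the latter, which holds for Ier2 below as well. For Ier2 the difference was -2.07 (SE 0.36, edgeR adjusted p = 0.0319), made up of -1.23 (SE 0.28) and 0.85 (SE 0.21), with all 3 mice on one side in each experiment. This call was lost under the replicate block (adjusted p = 0.16), with limma (0.062) and without any 1 of 9 single mice (0.0522 to 0.129). Each experiment had its own MPTP mice, so the order of irisin and MPTP and any other difference between the experiments cannot be told apart.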

How the results depend on the processing

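No member passed edgeR, DESeq2 or limma under any alternative, and the lowest adjusted p among them was 0.435. Of 564 refits of the 42 member values, 507 kept their direction and 57 turned it, all from estimates of at most 0.25 on the log2 scale, so these directions are not set by the data and the cause was not tested. Outside of leaving out mice, 11 turned. Akt2 in the difference of irisin effects with and without MPTP (0.0010) was -0.0030 under median ratio scaling, -0.022 without a filter, -0.00015 under the replicate block, -0.0091 with DESeq2 and -0.019 with limma. Akt2 with irisin after MPTP (0.0031) was -0.013 without a filter and -0.0072 with limma. Akt1 with MPTP in the pre-treatment experiment was 0.00017 with limma, Mapk3 with irisin before MPTP was 0.0027 without a filter, and Pik3ca with irisin alone was 0.022 under the replicate block and 0.046 with limma. On leaving out single mice, 46 turned, in 19 results with the ranges that follow. With MPTP in the pre-treatment experiment Akt1 ran from -0.045 to 0.046, Akt2 from -0.042 to 0.14 and Mtor from -0.011 to 0.099. With irisin before MPTP Akt1 ran from -0.078 to 0.011, Mapk3 from -0.064 to 0.038, Mtor from -0.026 to 0.081, Pik3ca from -0.49 to 0.081 and Pik3cb from -0.057 to 0.12. With MPTP in the delayed treatment experiment Pik3ca ran from -0.078 to 0.50. With irisin alone Akt2 ran from -0.033 to 0.055, Mtor from -0.013 to 0.018, Pik3ca from -0.21 to 0.34 and Pik3cb from -0.0014 to 0.40. With irisin after MPTP Akt2 ran from -0.050 to 0.066 and Mapk3 from -0.055 to 0.094. In the difference of irisin effects with and without MPTP Akt2 ran from -0.053 to 0.063 and Pik3ca from -0.096 to 0.48, and in the difference before and after MPTP Akt1 ran from -0.027 to 0.065 and Mapk3 from -0.091 to 0.058.

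Of the pathway genes, 1 was called with DESeq2 in the pre-treatment MPTP comparison (Pik3ip1), and 0 to 1 on leaving out single mice, namely Pik3cd without the first control mouse (log2 fold change 1.18, adjusted p = 0.0148) and Pik3ip1 without the second. With irisin after MPTP 1 was called in a fit of the compared groups only (Nras), and 0 to 1 on leaving out mice, Src without the third irisin mouse (log2 fold change -0.83, adjusted p = 0.0147). No other alternative called a pathway gene. The same alternatives, applied after seeing the data to the pathway genes that each comparison named by their p and to Fos and Ier2 where they were called, turned no direction, and were not applied to the other genes named. Fos with irisin before MPTP had an adjusted p of 0.0629 under the block, and Ier2 in the difference before and after MPTP one of 0.16 under the block, 0.062 with limma and 0.0522 to 0.129 without 9 single mice in turn, while Fos in that difference stayed called throughout.

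The replicate numbers were not shown to pair the mice, and 9 of 21 mice correlated best with their own number. Control and MPTP mice of the pre-treatment experiment correlated weakly by number, and this was not tested. With the replicate block 0 members and 0 pathway genes were called in all 7 comparisons, and the calls over all genes went from 5, 16, 29 and 24 to 2, 8, 17 and 14 in the first 4 comparisons and from 18 to 11 in the last. DESeq2, which was run without the filter, called 91, 169, 178, 144, 34, 62 and 72 genes in the 7 comparisons. For edgeR without the filter the calls were 5, 15, 26, 20, 2, 9 and 17. Why DESeq2 called more was not tested. With limma the calls went from 29 to 16, from 24 to 15 and from 9 to 3 in the delayed treatment experiment. The fit of the compared groups alone was not made for the 2 differences between effects, which need all groups.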
